A study of Mus musculus with 8 samples.

Results

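The collagen genes of mammary tumor organoids were followed in 5 bulk and 3 single-cell RNA-sequencing libraries. A gene was a member if its symbol was Col, a number, the letter a and a number, which gave 44 genes among the 38293 gene identifiers of the bulk tables. Of the 44, 34 had at least 1 read in a bulk line, 24 passed the filter on low counts and were tested, and 31 had at least 1 molecule in the single-cell libraries. The members were sorted into fibrillar (11), basement membrane (6), beaded filament (6), fibril-associated or FACIT (9), transmembrane (4), hexagonal network (3), multiplexin (2) and anchoring fibril (1) collagens, with 2 others.

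The organoids came from tumors of an MMTV-PyMT; MMTV-Cre; Ecadherin-mCFP mouse, in which the mammary tumor virus promoter drives both the polyoma middle T oncogene and Cre, and E-cadherin carries a cyan fluorescent tag. All lines, controls included, carried these alleles and were harvested 4 days after being split to single cells and grown in Matrigel, itself a basement membrane extract, with the growth factor FGF2. Control lines WT1 and WT3 and SOX4 knockout (SOX4KO) lines H7, M4 and H4 were sequenced in bulk, and control GR17 and SOX4KO GR18 and GR19 as plates of single cells. SOX4KO lines were made with CRISPR/Cas9 and each line is 1 clone, so that differences between clones are part of every comparison. The labels do not say which bulk line each single-cell plate came from. In bulk, fewer cells of a type and less RNA per cell cannot be told apart.

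Collagens are secreted or membrane-bound proteins whose chains wind into a helix, and the helices then assemble into fibrils, sheets, networks or filaments. Fibrillar types I, II, III, V and XI form banded fibrils, FACIT collagens sit on fibril surfaces, and type IV forms the sheet of the basement membrane on which mammary epithelium rests. Types II, IX, X and XI are best known from cartilage, and type XVII anchors basal epithelial cells to the basement membrane. A chain can leave the cell only once it has found its partners, so the balance between chains of 1 type is a property of interest.

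The promoters of the members that rose furthest are shown because SOX proteins bind a core of the letters ACAAAG or ACAATG. The windows run from 250 bases before to 50 bases after the start of the gene in RefSeq on GRCm38.p6, which is not the build (NCBIM37) named in the submitters' processing notes. They are written 5′ to 3′ on the strand of the gene, and capitals mark a core on either strand.
Col10a1, chr10:34389731-34390030, plus strand: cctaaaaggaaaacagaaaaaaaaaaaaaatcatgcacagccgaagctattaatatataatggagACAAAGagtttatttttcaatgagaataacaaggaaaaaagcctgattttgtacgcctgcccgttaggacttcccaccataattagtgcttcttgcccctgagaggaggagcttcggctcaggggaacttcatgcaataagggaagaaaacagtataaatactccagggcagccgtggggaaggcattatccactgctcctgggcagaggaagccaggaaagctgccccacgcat
Col16a1, chr4:130047590-130047889, plus strand: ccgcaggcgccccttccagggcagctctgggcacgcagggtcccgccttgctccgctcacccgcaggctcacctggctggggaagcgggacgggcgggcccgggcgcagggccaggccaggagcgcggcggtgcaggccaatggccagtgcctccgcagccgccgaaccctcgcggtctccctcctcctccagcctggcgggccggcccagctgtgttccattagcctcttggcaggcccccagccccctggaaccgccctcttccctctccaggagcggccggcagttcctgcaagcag
Col8a1, chr16:57754688-57754987, minus strand: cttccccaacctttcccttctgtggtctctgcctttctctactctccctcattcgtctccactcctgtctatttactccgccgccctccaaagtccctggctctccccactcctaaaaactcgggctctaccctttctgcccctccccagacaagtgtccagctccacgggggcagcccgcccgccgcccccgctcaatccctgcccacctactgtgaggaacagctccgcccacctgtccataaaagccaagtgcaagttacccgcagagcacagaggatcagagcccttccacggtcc

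Col10a1 held a core at position -185 from the start, and the windows of Col16a1, Col8a1, Col11a1 and both windows of Col18a1 held none. Of 35 members in the RefSeq table, 5 had a core in any window (Col10a1, Col17a1, Col20a1, Col28a1 and Col3a1), which was 13.2% of the 38 member windows. Among members called lower in bulk, Col6a3 held none, and Col2a1 and Col1a1 had no window in the table and were not searched. Of all 32851 windows in the table, 28.6% held a core. A match is only a run of letters, and its absence says nothing about binding outside these 300 bases.

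Levels are given in CPM, the reads or molecules of a gene scaled to a common library size (TMM-normalized in bulk). A molecule is a transcript counted once by its molecular barcode, or UMI. The bulk libraries held 3050323 to 4678497 reads on genes and the single-cell libraries 7714119 to 8296953 molecules in 362 to 369 cells. Lines of 1 group differed by more than sampling noise, the chi-square of their counts over genes being 9.74 times its degrees of freedom between WT1 and WT3 and 15.7 to 26.3 times between SOX4KO lines. Sox4 itself stood at 295 and 374 CPM in WT1 and WT3 and at 199, 179 and 299 CPM in H7, M4 and H4, a log2 fold change of -0.57 that was not called (edgeR adjusted p = 0.277), so the RNA level did not separate the groups. Epithelial markers were read in every line (Epcam 593 to 865 CPM, Krt8 321 to 471 CPM). Of 12 luminal markers, 1 was called higher (Esr1) and 0 lower, beside 4.10% and 2.17% of all genes tested. In every SOX4KO line 6 (Krt18, Krt19, Cldn3, Cldn7, Epcam and Kit) were below both controls, beside 17.9% of all genes tested. The log2 fold change was above 0 for 4, Esr1 and also Csn3 (1.81), Wfdc18 (0.27) and Prlr (0.19). Csn3, Wfdc18 and Prlr overlapped between groups. Of 10 fibroblast markers, 5 were at 0 in all lines and 0 of the 4 tested were called, with Pdgfra at 74.3 and 99.8 CPM in controls and 62.9, 41.4 and 72.8 CPM in SOX4KO lines, without overlap. The summed fibroblast list ranged from 1769 to 4424 CPM in controls and from 1576 to 4842 CPM in SOX4KO lines, nearly all of it Postn (1500 to 4786 CPM). Of 12 basal markers, 8 were tested and 3 were called higher in SOX4KO lines (Oxtr, Jag2 and Vim), beside 4.10% of all genes tested. The log2 fold change was above 0 for 7 of the 8. The keratins Krt14, Krt5 and Krt17 overlapped between groups and were not called (log2 fold changes 0.33, 1.47 and -1.08). Acta2, Myh11, Cnn1 and Tagln had at most 5 reads in any line and were not tested. The summed basal list was at 688 and 917 CPM in controls and 1102 to 2134 CPM in SOX4KO lines. Of 8 cycling markers, 5 were called lower, beside 2.17% of all genes tested. Of the cartilage list, Sox9 was at 614 to 718 CPM in every line and Acan, the core proteoglycan of cartilage, had no reads. On the plates the summed basal list was at 4416 CPM in GR17 and at 4057 and 2366 CPM in GR18 and GR19. The summed luminal list was at 1492 CPM in GR17 and at 1866 and 3574 CPM in GR18 and GR19. The basal sum was thus lower in SOX4KO plates but higher in SOX4KO bulk lines. The part of these shifts in the collagen results was not tested.

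Collagen transcripts were more abundant in SOX4KO organoids, and their make-up differed. Summed over all members, collagens reached 4256 and 2512 CPM in WT1 and WT3 and 6949, 5655 and 6655 CPM in H7, M4 and H4. Every SOX4KO line lay above both controls, with means of 3384 ± 1234 (SD, n = 2) and 6420 ± 678 (SD, n = 3), a ratio of 1.90. This sum was 0.270% to 0.452% of reads on genes in controls and 0.515% to 0.674% in SOX4KO lines. Fibrillar collagens made up 46.6% and 38.8% of collagen reads in WT1 and WT3 but only 26.6%, 27.7% and 27.3% in H7, M4 and H4. Multiplexin reads, which were all from Col18a1, made up 8.19% and 7.89% in controls and 22.7%, 17.9% and 21.4% in SOX4KO lines. Hexagonal network collagens made up 2.94% and 3.12% in controls and 7.16%, 5.33% and 11.7% in SOX4KO lines. The summed fibrillar level itself overlapped between groups, at 1985 and 974 CPM against 1851, 1567 and 1814 CPM. These sums are descriptions without a test.

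**Figure D1:**
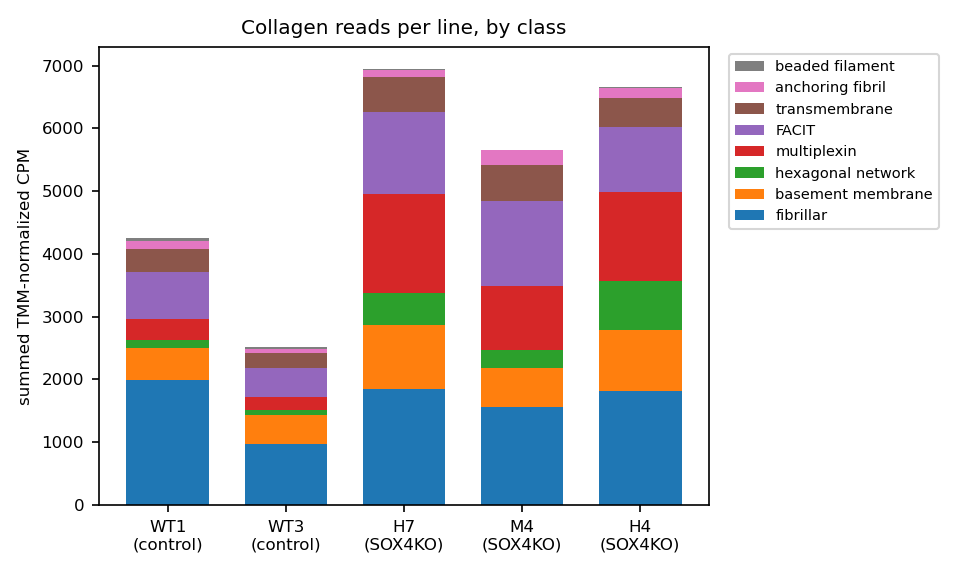
Summed collagen level per bulk line (vertical axis, TMM-normalized CPM), stacked by class, for 2 control and 3 SOX4KO lines, with 1 bar per line and no error bar. The 3 SOX4KO bars reach 5655 to 6949 CPM and the control bars 2512 and 4256 CPM, and the multiplexin layer is 4.90 times and the hexagonal network layer 5.17 times as thick on average.

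Of the 24 members tested, 5 were called higher and 3 lower in SOX4KO lines (edgeR quasi-likelihood test, adjusted p under 0.1), which is 33.3% beside 6.27% of all 11682 genes tested (4.10% higher, 2.17% lower). The higher ones were Col16a1, Col18a1, Col8a1, Col11a1 and Col10a1, and the lower ones Col2a1, Col1a1 and Col6a3. The median log2 fold change of the 24 was 0.61, beside 0.0087 for all genes tested, with 17 above 0 and 7 below. The groups did not overlap for 9 members that were higher and 3 that were lower, beside 19.0% and 17.9% of all genes tested, or 36.9% in either direction. The filter keeps a gene that is expressed in only 1 group, so the 24 are not a neutral sample of the 44. Without WT3 none of the members was called higher by edgeR, although the same 5 had an unadjusted p under 0.05, and over all genes calls then dropped to 30 higher and 26 lower of 11913. Without WT1, 3 members were called higher and 1 lower, and 93 and 37 of 12015 genes. DESeq2 on all lines called 9 members higher and 3 lower, and 658 and 305 of 13063 genes.

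**Figure D2:**
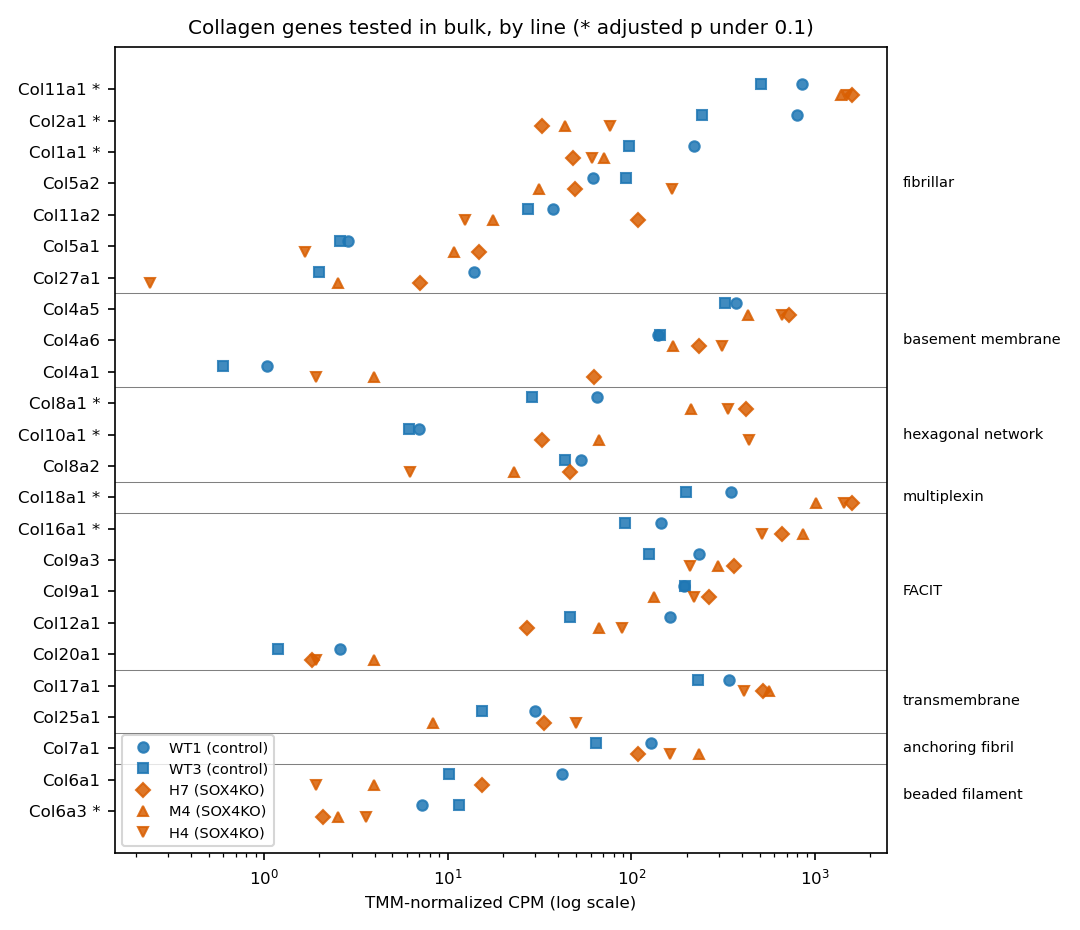
Level of each of the 24 tested collagen genes in each bulk line (horizontal axis, TMM-normalized CPM on a log scale), grouped by class, with blue for control and orange for SOX4KO lines, 1 point per line and an asterisk for genes called at an adjusted p under 0.1. Orange points lie to the right of both blue points for Col11a1, Col8a1, Col10a1, Col18a1 and Col16a1 and to the left for Col2a1, Col1a1 and Col6a3.

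Fibrillar collagens moved in opposite directions. Col11a1 (ENSMUSG00000027966), a chain of type XI that helps to start fibrils, stood at 849 and 508 CPM in WT1 and WT3 and at 1589, 1387 and 1494 CPM in H7, M4 and H4. Its log2 fold change was 1.14 ± 0.257 (standard error), with an adjusted p of 0.057 in the edgeR fit, and it held the largest share of collagen reads in every line (19.9% to 24.5%). The call was lost without WT1, WT3 or H7 (edgeR adjusted p = 0.109, 0.536 and 0.112), and all SOX4KO lines still lay above both controls. Col2a1, the chain of cartilage type II collagen, went the other way, from 793 and 242 CPM to 32.6, 43.6 and 76.4 CPM. It was the largest fall among the members called lower (-3.34 ± 0.507, adjusted p = 0.018 by edgeR) and was called in each of the 9 alternative fits. Its controls differed 3.28 times from each other, yet both lay above all SOX4KO lines.

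Col1a1, a chain of the main fibrillar collagen of stroma, fell from 219 and 97.6 CPM to 48.3, 71.3 and 61.3 CPM, with no overlap (-1.39 ± 0.325, adjusted p = 0.062 by edgeR). Without WT1 the log2 fold change was -0.70 and the call was lost (edgeR adjusted p = 0.418), as it was without H7 (0.127). Its partner Col1a2 had 9 and 8 reads in controls and 4, 4 and 5 in SOX4KO lines, too few to be tested. The other fibrillar members showed no called difference with all lines. Col5a2 ranged from 31.3 to 166 CPM and Col11a2 reached 109 CPM (H7), each with SOX4KO lines on both sides of the controls. Without H7 the sign of Col11a2 turned, and it was called lower (-1.13, edgeR adjusted p = 0.093). Col5a1 and Col27a1 stayed under 15 CPM in every line, and Col5a1 was called higher without H4 (2.24, edgeR adjusted p = 0.023). Col3a1 had at most 22 reads (WT1), and Col5a3 and Col24a1 had none.

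Among network-forming collagens, both genes of the hexagonal class that rose did so by large factors. Col8a1, which forms hexagonal lattices under endothelium and in the cornea, stood at 65.0 and 28.9 CPM in controls and 419, 212 and 337 CPM in H7, M4 and H4. The log2 fold change was 2.79 ± 0.415 (edgeR adjusted p = 0.017), and the lowest SOX4KO line was 3.26 times the higher control. Col8a2, its sister chain, was at 53.1 and 43.4 CPM in controls and 46.4, 23.0 and 6.23 CPM in SOX4KO lines, and was not called (-0.94 ± 0.590, edgeR adjusted p = 0.466). Col10a1 (ENSMUSG00000039462), the collagen of hypertrophic cartilage, was nearly absent from controls (6.99 and 6.17 CPM) and reached 32.6, 66.2 and 435 CPM in H7, M4 and H4. All SOX4KO lines exceeded both controls, but H4 was 6.56 times the next line, and the error is large (4.76 ± 1.17, edgeR adjusted p = 0.070). The call was lost without WT1 (edgeR adjusted p = 0.292) or WT3 (0.462). Exons of Col10a1 share 18 bases with Nt5dc1 on the opposite strand, and Nt5dc1 was at 22.9 to 36.4 CPM in every line.

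Col18a1, a basement membrane proteoglycan core whose end fragment is endostatin, showed the largest gain in CPM. It stood at 348 and 198 CPM in WT1 and WT3 and at 1578, 1013 and 1427 CPM in H7, M4 and H4, without overlap (2.29 ± 0.320, edgeR adjusted p = 0.014). Per kilobase of exon it was the most abundant collagen in each SOX4KO line (225, 144 and 203 CPM per kb), whereas Col2a1 led in WT1 (85.8 CPM per kb) and Col4a5 in WT3 (48.0 CPM per kb). The other multiplexin, Col15a1, had no reads.

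The type IV chains of the basement membrane were led by the alpha-5 and alpha-6 chains, and none was called by edgeR with all lines. Col4a5 stood at 371 and 322 CPM in controls and 722, 433 and 657 CPM in SOX4KO lines (0.80 ± 0.250, edgeR adjusted p = 0.137). Col4a6 was at 139 and 143 CPM against 234, 169 and 311 CPM (0.75 ± 0.256, edgeR adjusted p = 0.170). For both genes every SOX4KO line was above both controls, as in 19.0% of all genes tested. Col4a1, a chain found in nearly every basement membrane, had only 4 and 3 reads in WT1 and WT3 and 11 and 8 in M4 and H4, but 240 in H7. Its fitted log2 fold change was 4.81 ± 1.67 (edgeR adjusted p = 0.176), and without H7 the gene did not pass the filter on low counts. With all lines DESeq2 called Col4a1, Col4a5 and Col4a6 higher (adjusted p = 0.093, 0.037 and 0.092). With 1 line left out edgeR called Col4a1 without H4 (adjusted p = 0.051) and Col4a5 and Col4a6 without M4 (0.035 and 0.044). Col4a2, Col4a3 and Col4a4 had at most 9 reads in any line.

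Col4a1 and Col4a2 lie head to head, so their promoter windows overlap, and they are shown because reads of Col4a1 in H7 were not matched by reads of Col4a2 (7). Their exons share 22 bases on opposite strands. Capitals mark the 78 bases that both windows share, each written 5′ to 3′ on the strand of its gene (GRCm38.p6).
Col4a1, chr8:11312777-11313076, minus strand: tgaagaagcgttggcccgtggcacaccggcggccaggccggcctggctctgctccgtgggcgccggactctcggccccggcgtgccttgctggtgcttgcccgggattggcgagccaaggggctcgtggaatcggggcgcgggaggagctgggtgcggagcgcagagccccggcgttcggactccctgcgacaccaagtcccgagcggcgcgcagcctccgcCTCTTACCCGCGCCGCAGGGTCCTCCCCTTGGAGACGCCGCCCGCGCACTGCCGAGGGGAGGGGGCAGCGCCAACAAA
Col4a2, chr8:11312555-11312854, plus strand: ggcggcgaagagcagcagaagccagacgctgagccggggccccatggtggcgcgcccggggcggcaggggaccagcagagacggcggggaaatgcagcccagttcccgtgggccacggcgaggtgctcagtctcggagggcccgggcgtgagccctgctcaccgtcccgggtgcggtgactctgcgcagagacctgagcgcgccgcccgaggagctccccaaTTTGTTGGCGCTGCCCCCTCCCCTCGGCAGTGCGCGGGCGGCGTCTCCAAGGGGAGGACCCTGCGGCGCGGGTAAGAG

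Neither window held the SOX core letters. Col4a5 and Col4a6 are arranged in the same way, with 842 bases between their windows, and both were read in every bulk line.

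Among the fibril-associated collagens, Col16a1, which lies along fibrils and near basement membranes, rose with the lowest adjusted p of all members. It stood at 144 and 91.8 CPM in controls and at 661, 857 and 515 CPM in H7, M4 and H4 (2.52 ± 0.305, edgeR adjusted p = 0.011), and the lowest SOX4KO line was 3.56 times the higher control. The type IX chains, which coat type II fibrils, showed no called difference. Col9a1 was at 193 and 196 CPM against 265, 133 and 218 CPM (0.08 ± 0.272, edgeR adjusted p = 0.915), with SOX4KO lines on both sides of the controls. Col9a3 was at 234 and 125 CPM against 360, 296 and 210 CPM, also with overlap (0.69 ± 0.316, edgeR adjusted p = 0.304). Col9a3 shares 234 exonic bases with Tcfl5 on the opposite strand, and Tcfl5 was called lower (-1.16, edgeR adjusted p = 0.016). Col12a1, found along tendon and stromal fibrils, had 161 and 46.2 CPM in controls and 27.1, 66.2 and 88.6 CPM in SOX4KO lines and was not called (edgeR adjusted p = 0.535). Col20a1 stayed under 4 CPM, and Col14a1, Col19a1 and Col22a1 had at most 1 read in any line.

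Col17a1, the hemidesmosome collagen of basal cells, stood at 340 and 231 CPM in controls and 521, 559 and 411 CPM in SOX4KO lines, with no overlap and no call by edgeR with all lines (0.80 ± 0.236, adjusted p = 0.119). DESeq2 called it (adjusted p = 0.025), as did edgeR without H4 (0.080). Col7a1, which builds the anchoring fibrils beneath hemidesmosomes, was at 128 and 64.3 CPM against 109, 234 and 162 CPM, so that H7 lay between the controls (0.81 ± 0.372, edgeR adjusted p = 0.306). Of the beaded filament chains, Col6a3 fell from 7.25 and 11.6 CPM to 2.09, 2.52 and 3.59 CPM (-1.77 ± 0.411, edgeR adjusted p = 0.062), on 7 to 58 reads a line, and the call was lost without WT1, WT3 or H7. Col6a1 ranged from 10.2 to 41.7 CPM in controls and from 1.92 to 15.4 CPM in SOX4KO lines, with H7 above WT3, and was called lower by edgeR only without H7 (adjusted p = 0.078) or with every gene of at least 1 count kept. Col6a2 had at most 9 reads, and Col6a4, Col6a5 and Col6a6 had none. Col25a1 overlapped between groups (8.28 to 49.8 CPM), Col23a1 had at most 2 reads, and Col13a1, Col26a1 and Col28a1 had none.

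Chains of the same or a related collagen type were seldom measured at like levels. Levels of different genes were compared per kilobase of exon, since longer transcripts give more reads. Col1a2 stood at 0.0056 and 0.0086 of Col1a1 in WT1 and WT3 and at 0.011, 0.011 and 0.010 in H7, M4 and H4, although type I collagen is built mostly of both chains. Col9a2 was between 0.0017 and 0.015 of Col9a1, while Col9a3 was between 0.84 and 2.93 of it. Col4a6 stayed at 0.27 to 0.40 of Col4a5 in all 5 bulk lines. The plates held 122 molecules of Col4a6 beside 71 of Col4a5 in GR17, 217 of each in GR18 and 285 beside 198 in GR19. Molecules are not scaled by length, so they are a different measure from levels per kilobase. Col4a1, which assembles with Col4a2 and not with Col4a5, was at 0.0017 to 0.0082 of Col4a5 except in H7 (0.078).

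Groups did not overlap for 5 of the 12 ratios computed. For the levels of all genes tested, groups did not overlap in 36.9%, so such a count is not particular to these ratios. For 2 of the 5 both chains were well above the lowest levels. Col8a2 exceeded Col8a1 in both controls (1.43 and 2.62 times) and was below it in all SOX4KO lines (0.19, 0.19 and 0.032). Col2a1 was at 1.29 and 0.66 of Col11a1 in controls and at 0.028, 0.043 and 0.070 in SOX4KO lines. These ratios rest on the same reads as the levels of their members and were not tested. The control plate GR17 held 4 molecules of Col8a2 beside 261 of Col8a1 and 58 of Col2a1 beside 775 of Col11a1. These molecules are not scaled by length and cannot be set directly against the bulk ratios.

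**Figure D3:**
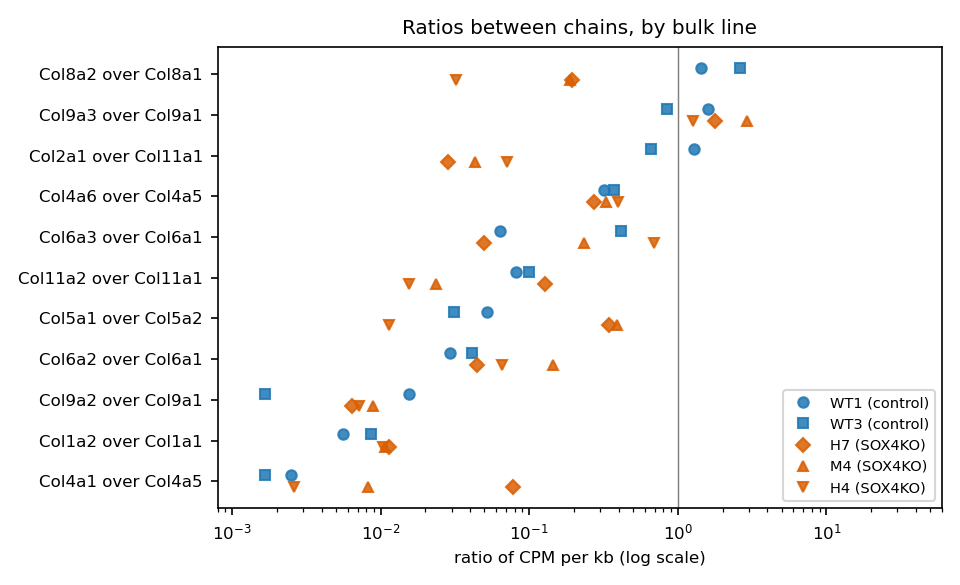
Ratio of the CPM per kb of chains of the same or a related type in each bulk line (horizontal axis, log scale, with a grey line at equal levels), with 1 point per line, blue for control and orange for SOX4KO. Col4a6 over Col4a5 holds a narrow band of 0.27 to 0.40, Col1a2 and Col9a2 lie far below their partners in every line, and Col8a2 over Col8a1 crosses the line between groups. Col4a2 over Col4a1 is left out because it was 0 in 2 lines.

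Of 35 listed genes that fold, modify, crosslink or otherwise process collagen, 25 were tested, 4 were called higher and 1 lower, or 20% beside 6.27% of all genes. The groups did not overlap for 11 that were higher and 2 that were lower, beside 19.0% and 17.9% of all genes tested. Of the 25, 23 had a log2 fold change above 0, beside 5941 of all 11682 genes tested. Loxl3, a crosslinking oxidase, rose from 124 and 83.2 CPM to 726, 469 and 453 CPM (2.41, edgeR adjusted p = 0.012). P3h2, a prolyl hydroxylase that acts on type IV chains, rose from 42.5 and 27.3 CPM to 145, 120 and 133 CPM (1.93, edgeR adjusted p = 0.011). The folding factors Fkbp14 (1.31, adjusted p = 0.031) and Crtap (1.10, adjusted p = 0.063) were also called higher by edgeR, each with no overlap. The listed gene that fell was Creb3l1, a transcription factor of secretory cells (-1.17, edgeR adjusted p = 0.038). Of these 5, edgeR called Loxl3 and P3h2 without WT1 and none without WT3. The collagen chaperone Serpinh1 (406 to 574 CPM) and the hydroxylase subunit P4hb (836 to 1103 CPM) overlapped between groups, and Lox, Loxl1 and Loxl2 had at most 3 reads in any line.

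Of 10 collagen receptors, 6 were tested and edgeR called 0, with 3 (Itga1, Itga2 and Mrc2) at an unadjusted p under 0.05, while DESeq2 called Itga2 and Mrc2 higher. Itgb1 (593 to 781 CPM) and Ddr1 (111 to 190 CPM) were the receptors with most reads, and neither was called. Of 15 small proteoglycans and fibril organizers, 10 were tested and 4 called higher, beside 4.10% of all genes. They were Sparc (1302 and 732 CPM against 3763, 5342 and 1693 CPM), Prelp (450 and 569 against 1391, 1128 and 1363 CPM), Thbs2 and Fmod, with edgeR adjusted p of 0.089, 0.023, 0.079 and 0.075. All 4 calls were lost without WT1 and without WT3.

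The single-cell plates gave a partly different picture. Each library is 1 plate and the control is 1 library, so no test was run, and intervals cover counting error only. Collagen molecules reached 777 CPM in control GR17 (95% exact Poisson interval 757 to 797), 1120 CPM in GR18 (1097 to 1143) and 1091 CPM in GR19 (1069 to 1114). Of 10 members with at least 20 CPM on average, Col11a1 and Col4a5 were at least 2-fold higher in both SOX4KO libraries and 0 were lower, beside 1.92% and 0.317% of all 6303 genes compared (2.24% in either direction). Col4a5 reached 20 CPM on average only through the SOX4KO libraries (9.20 CPM in GR17, 27.1 and 23.9 CPM in GR18 and GR19). Its place in this count thus rests in part on the filter. The median log2 difference of the 10 was 0.72 in GR18 and 0.62 in GR19, beside 0.0094 and -0.048 for all genes compared, and 6 were higher in both libraries and 2 lower in both.

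Col11a1 had 775 molecules in GR17 (100 CPM), 2438 in GR18 (304 CPM) and 2510 in GR19 (303 CPM), log2 differences of 1.59 and 1.58. Thinned to 5000 molecules a cell, 31.6%, 68.2% and 73.2% of cells held a Col11a1 molecule, in GR17, GR18 and GR19, and 69.6%, 93.8% and 96.4% without thinning. As a guide to background, Col17a1 was found in 2.41% of thinned cells of clusters low in the basal keratin Krt5 and in 38.3% of the others, at median depths of 23421 and 19647 molecules. Col4a5 had 71, 217 and 198 molecules (9.20, 27.1 and 23.9 CPM), and its neighbour Col4a6 122, 217 and 285 (15.8, 27.1 and 34.3 CPM), higher in both SOX4KO libraries but past 2-fold only in GR19.

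Col18a1 departed from bulk. It had 1998 molecules in GR17 (259 CPM) and 1813 and 1885 in GR18 and GR19 (226 and 227 CPM), log2 differences of -0.19 in each, beside 2.29 in bulk. Col16a1 (54.7, 130 and 88.1 CPM) and Col8a1 (33.8, 66.4 and 50.1 CPM) were higher in both SOX4KO libraries, by log2 differences of 0.55 to 1.24, less than the 2.52 and 2.79 of bulk. Col9a1 was at 92.3 CPM in GR17 and at 150 and 199 CPM in GR18 and GR19, whereas its bulk levels overlapped. Col17a1, Col7a1 and Col9a3 lay between -0.39 and 0.25.

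**Figure D4:**
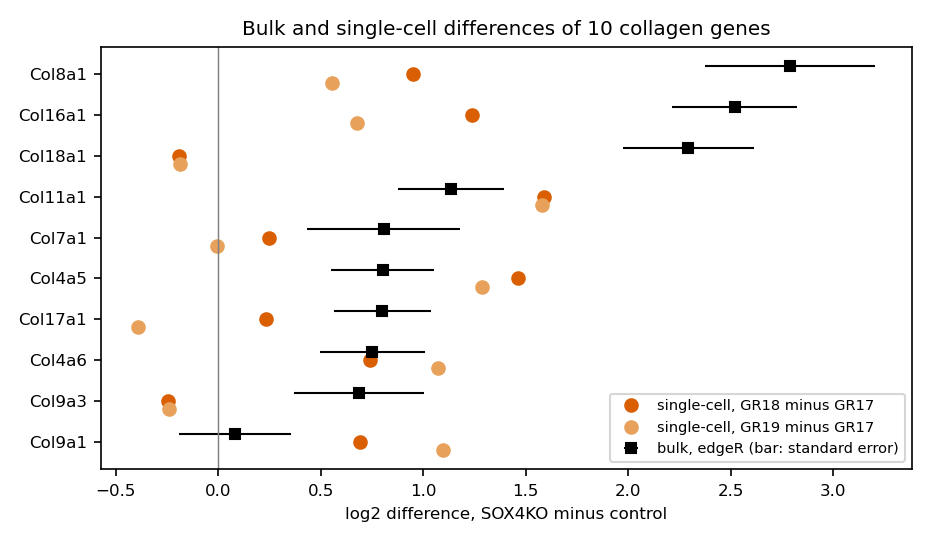
Log2 difference between SOX4KO and control (horizontal axis) of the 10 collagen genes compared in single cells, as the bulk edgeR estimate with its standard error (black squares) and as GR18 and GR19 minus GR17 (orange circles, no error shown). Col11a1 and Col4a5 lie at or right of the bulk estimate, Col8a1 and Col16a1 to its left, and Col18a1 at -0.19 in both libraries beside 2.29 in bulk.

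Of the other members called in bulk, Col2a1, Col1a1, Col10a1 and Col6a3 had too few molecules in single cells for a fold. Col2a1 had 58, 17 and 1 molecules, and of the 58 in GR17 a single cell held 20 and 20 cells held all of them. Col1a1 had 52, 36 and 23 molecules, 30 of the 52 in GR17 from 1 cell. Col10a1 had 0 and 0 molecules in GR17 and GR18 and 2 in GR19, and a count of 0 allows up to 3 molecules, or 0.389 CPM, in GR17 (95% exact upper limit 0.478 CPM). The upper limits in GR18 and GR19 were 0.461 and 0.871 CPM, beside 32.6 to 435 CPM in the SOX4KO bulk lines. Col11a1 was at 304 and 303 CPM on these 2 plates and at 1387 to 1589 CPM in those lines. The rise of Col10a1 in bulk was thus not seen on the plates, and the cause was not tested. Col6a3, called lower in bulk, had 21, 11 and 28 molecules (2.72, 1.37 and 3.37 CPM), with GR19 above the control. No molecule of Col1a2 was found on any plate, beside 775 to 2510 of Col11a1.

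The cells were clustered without the collagen genes, which gave 7 clusters, A to G, and these were split after their values were seen by whether Krt5, a basal keratin, reached 500 CPM. The Krt5-high clusters A, B, C, F and G held 808 cells at 1009 to 2566 CPM of Krt5. The Krt5-low clusters D and E held 292 cells at 78.9 and 69.4 CPM of Krt5 and at 1790 and 2713 CPM of the milk protein gene Csn3. Krt5-high cells were 316 of 369 in GR17, 262 of 369 in GR18 and 230 of 362 in GR19. They lay mostly in A and F in GR17 (207 and 100 cells) and in B, C and G in GR18 and GR19, so a comparison between libraries within the class sets different clusters against each other. No doublet caller was run.

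Most collagens were at a higher level in Krt5-high cells. Col17a1 stood at 79.6, 115 and 88.6 CPM in Krt5-high cells of GR17, GR18 and GR19 and at 7.90, 5.42 and 1.97 CPM in Krt5-low cells, and the lowest of the former was above the highest of the latter. Col8a1 was at 40.5, 95.3 and 83.1 CPM against 0, 5.80 and 6.19 CPM, and Col7a1 at 25.0, 37.8 and 37.1 CPM against 6.32, 1.93 and 1.41 CPM. Col18a1 was at 287, 307 and 340 CPM against 116, 57.2 and 76.5 CPM, and Col16a1 at 59.1, 173 and 126 CPM against 32.4, 41.4 and 37.7 CPM. Col9a1 was the reverse, with 81.4, 119 and 165 CPM in Krt5-high and 148, 214 and 244 CPM in Krt5-low cells. For Col4a5 and Col4a6 the order of the classes varied with the library. Col4a5 was at 9.77, 26.9 and 27.4 CPM in Krt5-high and 6.32, 27.5 and 19.1 CPM in Krt5-low cells of GR17, GR18 and GR19, and Col4a6 at 15.4, 28.2 and 40.7 CPM against 18.2, 24.8 and 25.9 CPM. Only in GR19 did the 95% interval of the ratio between classes exclude 1 (1.43, 1.06 to 1.95, for Col4a5 and 1.57, 1.22 to 2.04, for Col4a6).

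Within both classes Col11a1 was higher in SOX4KO libraries. It stood at 106 CPM in Krt5-high cells of GR17 and at 339 and 365 CPM in those of GR18 and GR19, and at 73.5 CPM against 232 and 219 CPM in Krt5-low cells. Its highest cluster was B (515 CPM), whose leading gene was Postn, and its lowest F (79.1 CPM). Col16a1 in Krt5-high cells was 2.93 and 2.13 times the control in GR18 and GR19, and its intervals in Krt5-low cells overlapped between all libraries. Col8a1 was 2.35 and 2.05 times the control in Krt5-high cells. In Krt5-low cells it had 0 molecules in GR17 (95% exact upper limit 2.91 CPM), 15 in GR18 (3.25 to 9.57 CPM) and 22 in GR19 (3.88 to 9.37 CPM). Col18a1 was close to level in Krt5-high cells (SOX4KO over control 1.07 and 1.19) and lower in Krt5-low cells of SOX4KO libraries (0.49 and 0.66). Col6a1 was lower in SOX4KO cells of both classes, at 13.8 CPM against 6.82 and 2.32 CPM in Krt5-high cells. In Krt5-low cells it rested on 19 molecules in GR17 and on 3 and 7 in GR18 and GR19. Few cells held much of Col6a1, with 30 of 108 molecules in 3 cells of GR17 and 20 of 40 in 1 cell of GR18. Its highest cluster was F (39.0 CPM, 69 molecules).

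Col5a2 differed widely among SOX4KO libraries. It had 109 molecules in GR17, 7 in GR18 and 135 in GR19, nearly all in Krt5-high cells. In bulk its lowest and highest levels were both in SOX4KO lines, at 31.3 CPM in M4 and 166 CPM in H4.

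**Figure D5:**
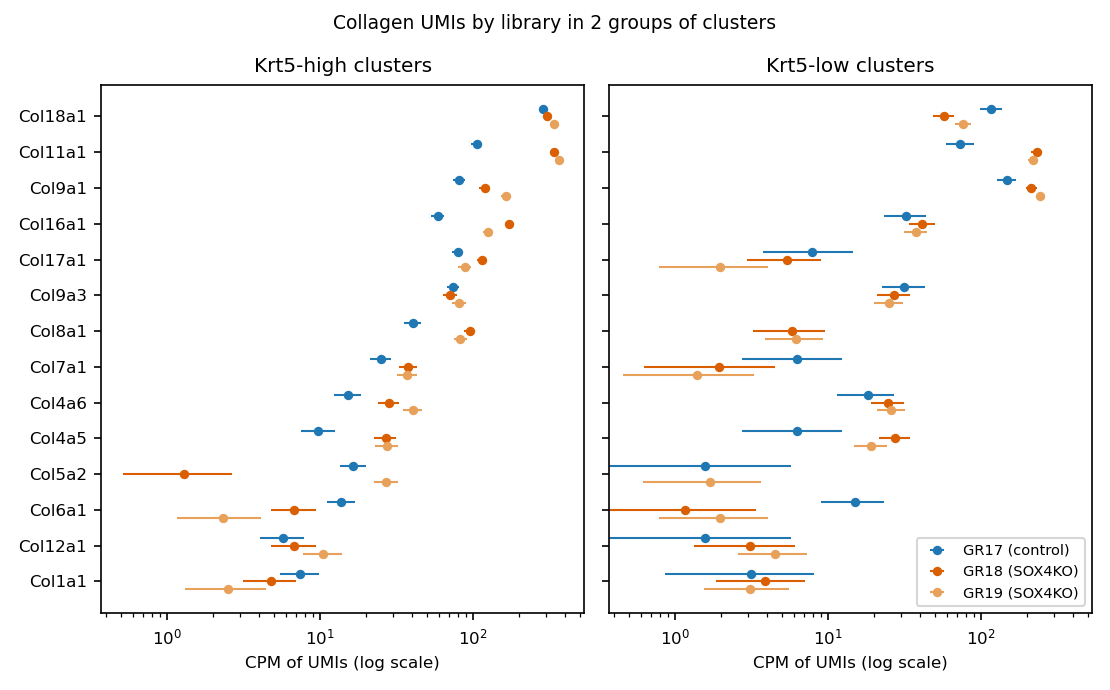
Level of the 14 collagen genes with at least 100 molecules in all (horizontal axis, CPM of molecules on a log scale) in Krt5-high (left) and Krt5-low clusters (right), by library, with 95% exact Poisson intervals that cover counting error only. Levels of 0 are not drawn (Col8a1 in GR17 and Col5a2 in GR18, both in Krt5-low clusters). Col17a1, Col8a1, Col7a1 and Col5a2 are lower on the right in every library drawn, Col9a1 is higher there, and Col11a1 is higher in both SOX4KO libraries on both sides.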

How the data were processed

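Bulk RNA-sequencing (5 lines, NEXTflex Rapid Directional kit) and single-cell RNA-sequencing (3 plates of 384 wells) were analysed. The deposited bulk tables hold unnormalized read counts for each Ensembl gene, made by the authors with HTSeq, and the deposited single-cell tables unnormalized counts for each gene and well. Single-cell counts were taken as UMI counts, since the highest value was 3795, below 4096, the number of barcodes of 6 bases. The labels do not say whether they are UMI, corrected or read counts. The words molecule and UMI and the Poisson intervals rest on this assumption. The submitters' processing notes name STAR 2.4.2a, Picard, HTSeq, R 3.6.1, Seurat, edgeR and DESeq and the builds NCBIM37 and mm9. The strand setting of HTSeq is not given in the sources used here. Rows that name no gene (5 a line, 71.6% to 83.9% of the column sums) were left out.

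Symbols, exon lengths and overlaps came from GENCODE vM21, which matched 36345 of 38293 identifiers (98.1% of reads). All genes that passed filterByExpr were fitted with edgeR 4.0.16 under R 4.3.3, using TMM factors and the quasi-likelihood test, and called at a Benjamini-Hochberg adjusted p under 0.1. Standard errors were the absolute fold change over the square root of F. DESeq2 1.42.0 was an alternative. CPM in bulk uses TMM-normalized library sizes. The lines are separate clones, and p-values measure the spread between them.

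Wells with at least 1000 UMIs were kept (369, 369 and 362), UMIs were summed per library, and log2(CPM + 1) was compared for genes of at least 20 CPM on average. Well numbers, all 384 shared between plates, are the only barcodes. Cells were clustered with Seurat 5.3.0 (2000 variable genes, collagens left out, 10 principal components, 20 neighbours, resolution 0.5). Fits were run on simulated counts with the same spread for every gene. That setting is simpler than these lines and does not test how the fits handle the spread between clones. Named in full were members called in bulk, those of at least 100 CPM in either bulk group and those past 2-fold in both SOX4KO plates, and, of the processing, receptor and proteoglycan lists, genes called in bulk. Others are named as counts or ranges, or after their values were seen. Members and lists were chosen with earlier results of these data known.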

Additional observations from a re-analysis of the deposited data

How the results depend on the processing

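No paired analysis was possible because the lines are independent clones and their labels carry no replicate numbers that pair a control with a SOX4KO line. Of the collagens, 5 were called higher and 3 lower. DESeq2 called 9 higher and 3 lower, and an adjusted p under 0.05 gave 3 and 1. Keeping every gene with at least 1 count in edgeR gave 12 and 7 (1008 and 678 over all genes). That fit gave far lower adjusted p at nearly the same fold changes. For Col10a1 the log2 fold change was 4.75 with an edgeR adjusted p of 1.6e-56, beside 4.76 and 0.070 in the main fit. The cause was not tested. Leaving out 1 line gave 0 to 8 higher (lowest without WT3, where 30 of all genes were called higher, beside 479 with all lines, and highest without H4) and 1 to 3 lower (lowest without WT1), and with a control left out the lone control is assumed to vary like the other lines. The median log2 fold change ranged from 0.31 (without WT3) to 0.96 (without WT1) around 0.61. Of processing and receptor genes, 4 were called higher and 1 lower, 9 higher by DESeq2, 14 and 2 with every gene of at least 1 count, 2 lower with at least 1 CPM in 2 libraries, and 0 to 10 higher and 0 to 1 lower with 1 line left out. Proteoglycans and organizers went from 4 called higher to 1 under 0.05 and to 0 to 4 with 1 line left out.

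Col2a1 was called in every alternative fit, and Col16a1, Col18a1 and Col8a1 in all but the one without WT3. The sign changed for members that were not called with all lines, with 1 line left out. Their log2 fold changes then ranged from -0.049 to 1.05 (Col20a1), -1.13 to 0.99 (Col11a2, called lower without H7), -0.18 and -0.94 to 0.46 (Col5a2), -0.15 to 0.31 (Col9a1), -1.41 to 0.39 (Col12a1), -2.09 to 0.71 (Col27a1) and -0.071 to 1.01 (Col25a1), and the cause was not tested.

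In single cells, members past 2-fold were 1 higher (Col11a1, and not Col4a5) at 50 CPM on average or with a pseudocount of 10, and 1 lower (Col6a1) at 5 CPM on average. Without mitochondrial genes and Rn45s the summed collagens were 930, 1331 and 1383 CPM in GR17, GR18 and GR19. The share of cells with Col11a1 was 69.6%, 93.8% and 96.4% without thinning and 17.7%, 43.2% and 42.3% at 2000 UMIs. Krt5-high cells held 1134, 1116 and 1139 CPM of collagens at resolution 0.3, with 20 components and with collagens kept, against 1162, and Krt5-low cells 666 against 637 with 20 components. With 3050323 to 4678497 reads a line, members under about 10 reads gave no usable fold.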
